A study of Mus musculus with 12 samples.

Results

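The loci of 3 mouse genes for cell surface proteins, Piezo2, Ncam1 and Nrp2, were examined in ATAC-seq peak lists of hernia-associated fibroblasts (HAFs). A peak belonged to a locus when its summit lay in the gene body or in the 50000 bp upstream of it. By this rule 297 of 658361 listed peaks were members, and they merged into 200 of the 435284 regions of the series. The Piezo2 window (gene ENSMUSG00000041482.17, minus strand) was chr18:63010213-63437183 in mm10 and held 127 peaks. The Ncam1 window (ENSMUSG00000039542.16, minus strand) was chr9:49502136-49848925 and held 101 peaks. The Nrp2 window (ENSMUSG00000025969.15, plus strand) was chr1:62653285-62818695 and held 69 peaks.

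ATAC-seq inserts sequencing adapters into accessible DNA with a transposase, and a peak marks a place with more insertions than its surroundings. HAFs are fibroblasts of the lower abdominal muscle, and here they were primary cells from Aromhum mice, which carry the human aromatase gene on a bacterial artificial chromosome with several of its own promoters and so convert androgen to estrogen. All cultures carried that transgene, were enriched by preplating, were passaged once and were kept in serum-free medium. The 4 groups were vehicle (ethanol and DMSO), estradiol (E2) at 10 nM, the same E2 dose plus fulvestrant at 100 nM, and fulvestrant alone at that dose, with 3 libraries each. The labels give a time of 1 hr, which in the study's methods counts from the addition of E2 or ethanol, after 3 hours of pretreatment with fulvestrant or DMSO. Fulvestrant blocks and degrades the estrogen receptor. The labels do not say whether the libraries of a group came from separate animals or cultures, so p-values measure only the spread between these libraries, which may be technical.

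PIEZO2 is a cation channel that opens when the membrane is stretched or indented, and it is best known for touch and proprioception in sensory neurons. NCAM1 is an adhesion protein of the immunoglobulin superfamily that binds to itself on neighbouring cells and signals through FGF receptors and the kinase FYN. In muscle it is known from satellite cells and neuromuscular junctions. NRP2 is a co-receptor for class 3 semaphorins, which act through plexins, and for VEGF-C, and it is known from axon guidance and lymphatic vessels. An estrogen-bound receptor acts on chromatin directly at estrogen response elements or through other factors such as AP-1, and accessible promoters and introns are where such binding can be looked for.

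The peak lists differed widely in length and strength among libraries of the same treatment. They held 30062 to 110724 peaks, and 7.35% to 46.4% of a list had a q-value of 0.05 or less. The number 1 library of each treatment and vehicle library 3 listed a promoter peak at 53.7% to 62.7% of 21938 protein-coding genes. Vehicle library 2, the longest list, did so at 44.3%, and the other 6 libraries at 17.3% to 29.6%. The study states that male mice were used, yet the number 1 libraries listed 22 to 36 peaks on the Y chromosome against 854 to 1148 in the other 8, so differences are also given within these 2 sets. The part of these library differences in the results was not tested. Among cell type markers, 5 of 10 fibroblast genes had a promoter peak in at least 6 libraries, with 9 for Col1a1 and Col1a2 and 7 for Pdgfra, and Tcf21 had none. The 50% of fibroblast genes in at least 6 libraries stood beside 45.2% of all protein-coding genes. The number 1 libraries listed 6 to 9 of these 10 genes and E2 library 3 listed 0. At least 6 libraries listed the promoter of 2 of 7 myogenic, 1 of 6 endothelial, 0 of 5 leukocyte and 0 of 4 epithelial genes. Of the myogenic list, Des and Cdh15 had a promoter peak in 6 libraries each, and Pax7 and Myod1 had none in all 12 libraries.

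Sequences are shown for the Ncam1 and Nrp2 regions to which the description below returns, since they span the kinds of site that were listed: an intron site, a simple repeat, a second intron site and a CpG-rich promoter. Each runs 5′ to 3′ on the plus strand of mm10, with CpG dinucleotides in capitals. The intron and repeat sequences are the 201 bp around the median summit, and the promoter is the part of the RefSeq promoter table (GRCm38.p6) that ends at the base before the annotated start of Nrp2.
Ncam1 intron, chr9:49605739-49605939: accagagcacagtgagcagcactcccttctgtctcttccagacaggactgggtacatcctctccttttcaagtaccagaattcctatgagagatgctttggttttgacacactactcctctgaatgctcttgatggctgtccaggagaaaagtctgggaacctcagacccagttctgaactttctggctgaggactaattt
Ncam1 repeat, chr9:49553931-49554131: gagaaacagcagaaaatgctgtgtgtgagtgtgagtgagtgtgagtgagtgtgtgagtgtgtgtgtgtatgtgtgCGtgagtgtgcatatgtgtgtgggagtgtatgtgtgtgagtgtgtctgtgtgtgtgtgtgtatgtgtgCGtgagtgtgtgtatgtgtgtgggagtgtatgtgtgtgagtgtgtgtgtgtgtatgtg
Nrp2 intron, chr1:62777437-62777637: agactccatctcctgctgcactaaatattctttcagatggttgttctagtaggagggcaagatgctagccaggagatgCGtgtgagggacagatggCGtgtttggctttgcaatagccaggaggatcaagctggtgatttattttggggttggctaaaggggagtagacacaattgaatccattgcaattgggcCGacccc
Nrp2 promoter, chr1:62703067-62703284: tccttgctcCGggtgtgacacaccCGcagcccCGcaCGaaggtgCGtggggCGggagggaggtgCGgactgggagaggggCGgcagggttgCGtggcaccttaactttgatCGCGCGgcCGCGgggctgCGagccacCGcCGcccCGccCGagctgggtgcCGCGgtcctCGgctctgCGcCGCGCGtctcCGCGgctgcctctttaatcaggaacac
The Nrp2 promoter held 28 CpG dinucleotides in 218 bp with a GC content of 72.5%, against 0, 2 and 3 CpG in the other sequences, whose GC content was 47.8% to 48.8%. In the Ncam1 repeat, 92.5% of the bases were masked as repeat.

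Most peaks at the loci were weak and lay in introns, and most merged regions were listed in a single library. The fold enrichment is the ratio of the tag pileup at the summit to the local background, with 1 added to each. At Piezo2 it ranged from 2.22 to 8.02 with a median of 3.07. It ranged from 2.26 to 6.72 with a median of 3.11 at Ncam1, and from 2.22 to 5.75 with a median of 3.03 at Nrp2, beside a median of 3.16 for all listed peaks. A q-value of 0.05 or less was reached by 23 of 127 peaks at Piezo2 (18.1%), 25 of 101 at Ncam1 (24.8%) and 12 of 69 at Nrp2 (17.4%), and by 24.8% of all peaks. Summits lay in introns for 93 Piezo2, 69 Ncam1 and 47 Nrp2 peaks. The membership rule takes in the whole body of these long genes, so these counts depend on it. No intron share of all listed peaks is set beside them. Within 3000 bp of a start site of the gene lay 17, 11 and 7 peaks. Of the 200 merged regions 146 (73%) were listed in 1 library only, beside 77.7% of all regions.

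The density of peaks at these long genes was ordinary. Per 100 kb and library, Piezo2 had 2.48 peaks, Ncam1 2.43 and Nrp2 3.48. These values stood at percentiles 37.8, 36.8 and 58.3 of all protein-coding loci, whose median was 3.08.

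**Figure D1:**
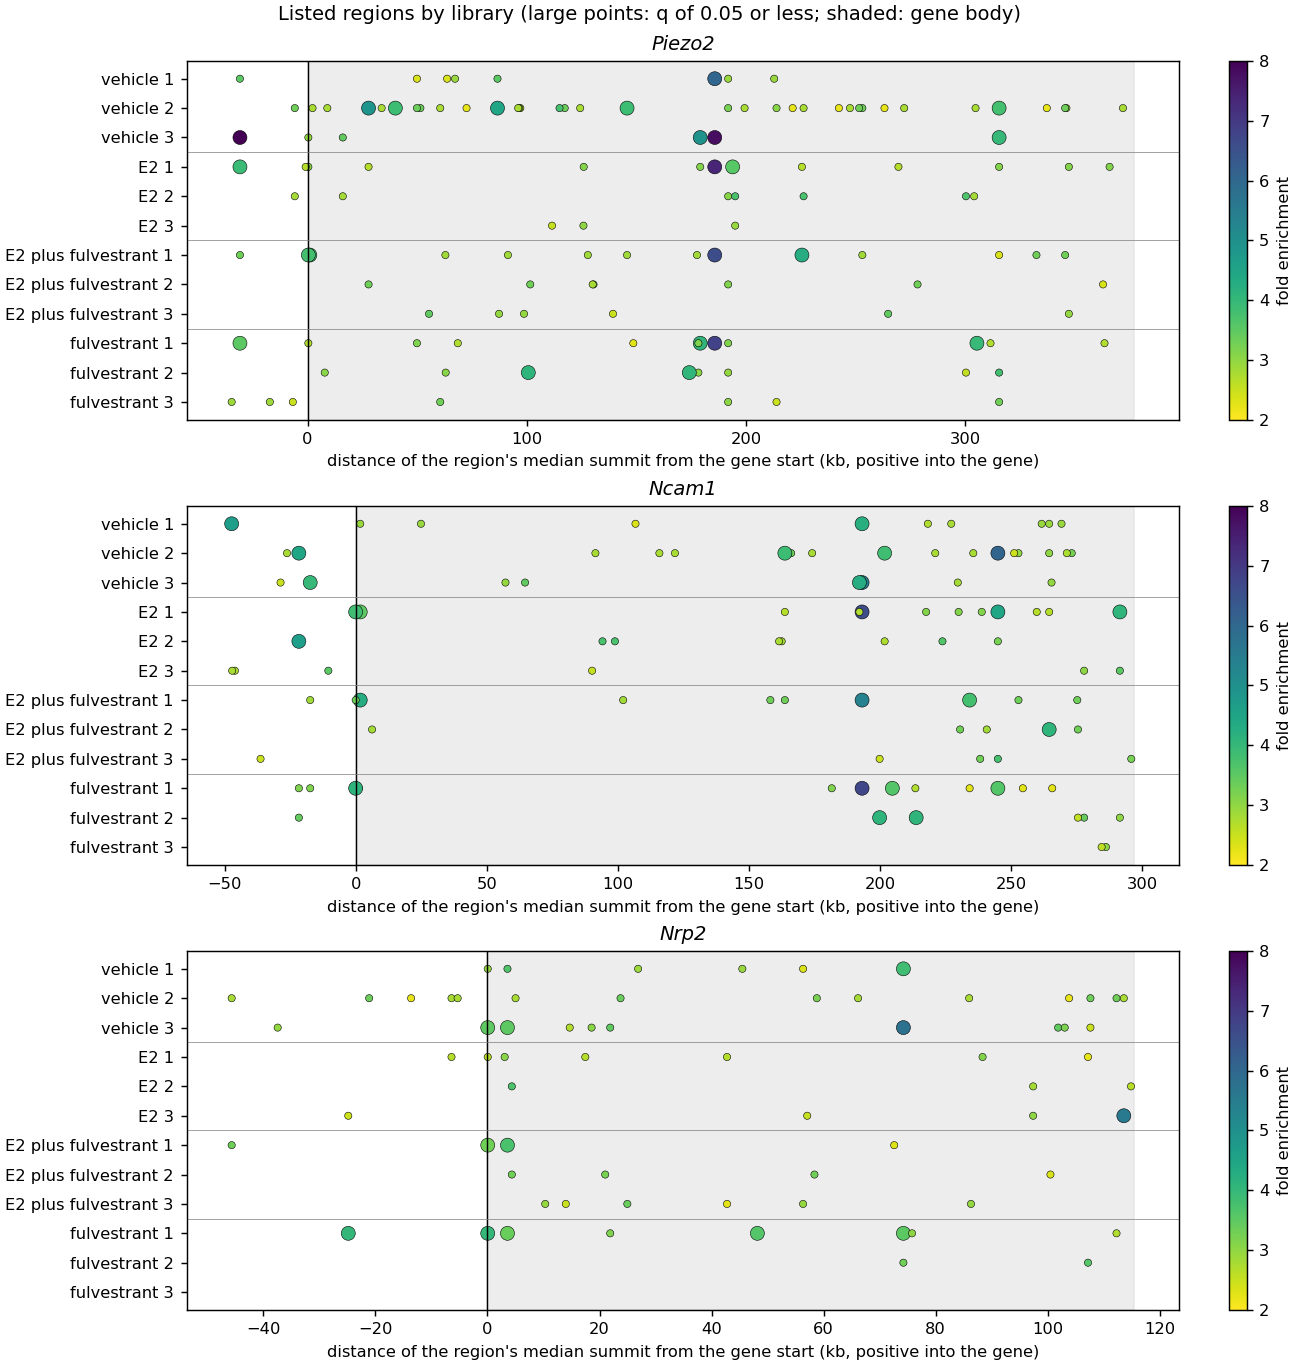
Merged regions at the 3 loci in each library. The horizontal axis is the distance of the median summit from the gene start in kb, rows are the 12 libraries grouped by treatment, colour is fold enrichment, large points have q of 0.05 or less and shading marks the gene body. Most large points lie in the number 1 rows and in vehicle rows 2 and 3, and E2 plus fulvestrant library 3 and fulvestrant library 3 have none.

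At the promoters, peaks were listed in 8 of 12 libraries for Piezo2, 6 for Ncam1 and 5 for Nrp2. Of all protein-coding genes, 20.8%, 45.2% and 55.3% were listed in at least as many. Only 166 genes (0.757%) had a promoter peak in all 12 libraries, and 11.8% had one in none. Piezo2, with 13 annotated start sites, was listed in vehicle libraries 2 and 3, E2 libraries 1 and 2, E2 plus fulvestrant library 1 and all 3 fulvestrant libraries. Ncam1, with 7 start sites, was listed in vehicle libraries 1 and 3, E2 library 1, E2 plus fulvestrant libraries 1 and 2 and fulvestrant library 1. Nrp2, with 2 start sites, was listed in vehicle libraries 1 and 3 and in library 1 of the other 3 treatments. None of the 3 was among the 57 genes (0.26%) with a promoter peak in every E2 library and no library of E2 plus fulvestrant.

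Peaks near the outermost 5′ start of each gene came from a few libraries, spread over all 4 treatments. For Nrp2 these came from vehicle libraries 1 and 3 and library 1 of E2, E2 plus fulvestrant and fulvestrant, with q of 0.05 or less in vehicle library 3, E2 plus fulvestrant library 1 and fulvestrant library 1. For Ncam1 they came from the 4 number 1 libraries, with q of 0.05 or less in all but vehicle. For Piezo2 they came from vehicle libraries 2 and 3 and library 1 of the other 3 treatments, with q of 0.05 or less in E2 plus fulvestrant library 1 alone. No E2, E2 plus fulvestrant or fulvestrant library numbered 2 or 3 listed a peak within 3000 bp of the outermost start of any of the 3 genes.

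**Figure D2:**
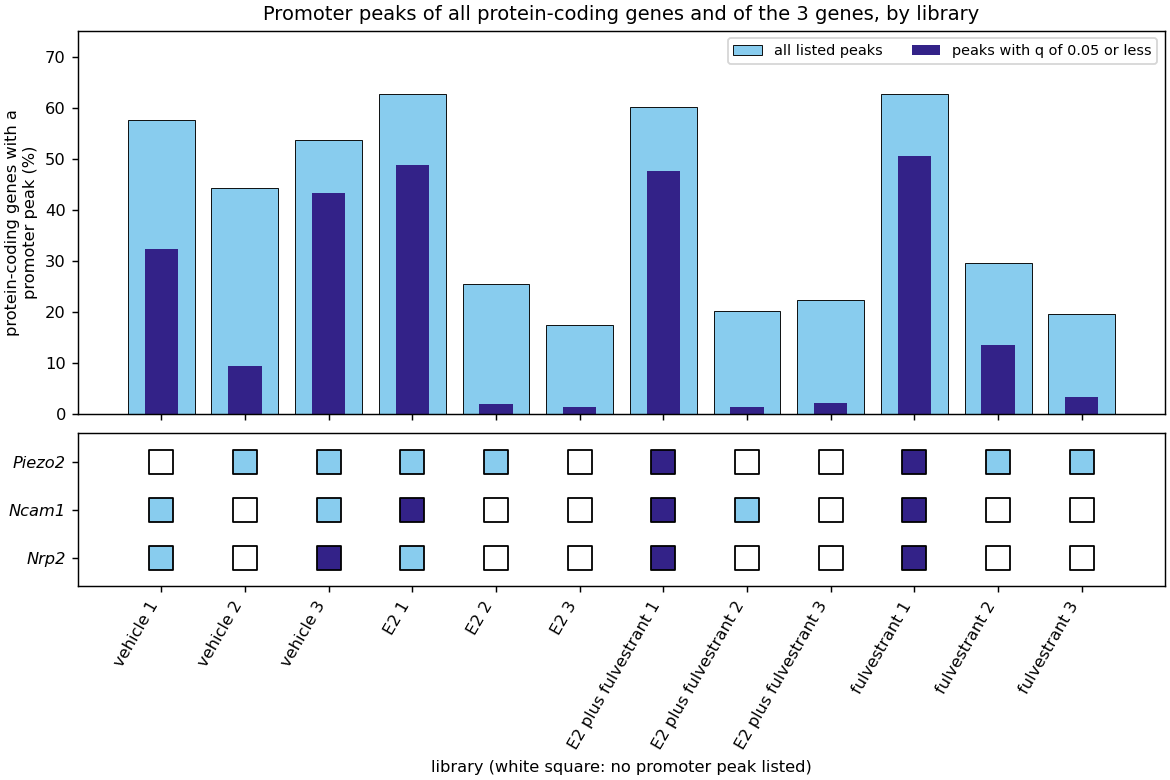
Promoter peaks by library. Bars give the percent of protein-coding genes with a peak summit within 3000 bp of a start site, wide for all listed peaks and narrow for peaks with q of 0.05 or less, and squares show the 3 genes in the same libraries and colours. Bars are 53.7% or higher in the number 1 libraries and vehicle library 3, and Nrp2 is listed in exactly these 5.

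The sites with the highest fold enrichment at Piezo2 and Ncam1, an intron region of each gene and a region far upstream of Piezo2, were listed by the same 5 libraries. Regions in at least 4 libraries are described, a number chosen after the lists were seen. There were 12 of these among 200 (6%), beside 6.57% of all regions: 5 at Piezo2, 4 at Ncam1 and 3 at Nrp2. In at least 6 libraries there were 2 of 200, both at Piezo2, a smaller share than the 2.57% of all regions.

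The Piezo2 intron region chr18:63200913-63201632, 185750 bp into the gene, had the highest −log10 q of the 3 loci. Its fold enrichment was 6.04 in vehicle library 1, 7.8 in vehicle library 3, 7.38 in E2 library 1, 6.6 in E2 plus fulvestrant library 1 and 6.82 in fulvestrant library 1. The −log10 q values were 5.2, 12.5, 10.1, 9.27 and 9.31 in that order, from pileups of 10, 21, 17, 18 and 17 tags. Among the number 1 libraries, fold enrichment and −log10 q were highest with E2, but the pileup was highest with E2 plus fulvestrant. With 1 library for each treatment no test could be made, and vehicle library 3 was higher than all in each of these values. In the 201 bp around the median summit of the region, no base was masked as repeat.

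The upstream Piezo2 region chr18:63417498-63418374, at −30835 bp from the gene start, lay inside the long noncoding RNA gene Gm26972 (chr18:63399214-63421197, plus strand). It was listed in the same 5 libraries at a fold enrichment of 3.5, 8.02, 3.91, 3.32 and 3.51. Vehicle library 3 stood apart with 20 tags, and the other 4 had 5 to 8. In its 201 bp window it held 1 AP-1 motif and 1 TEAD motif, by letters alone.

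At Ncam1 the counterpart was the intron region chr9:49605392-49606144, 193086 bp into the gene, whose centre is the Ncam1 intron sequence above. The fold enrichment was 4.21 in vehicle library 1, 5.47 in vehicle library 3, 6.64 in E2 library 1, 5.36 in E2 plus fulvestrant library 1 and 6.72 in fulvestrant library 1. All 5 had q of 0.05 or less, with −log10 q of 2.04, 5.69, 8.55, 5.84 and 9.14. The highest value was from fulvestrant alone and the next from E2, so the order did not separate the agonist from the antagonist.

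At Nrp2 the region of the CpG-rich promoter above, chr1:62703037-62703708 with its median summit 42 bp past the start, was weaker. Its fold enrichment was 2.97, 3.49, 2.65, 3.31 and 4 in the same 5 libraries, with 5, 8, 7, 8 and 11 tags. The E2 library had the lowest fold enrichment of the 5, but vehicle library 1 had the fewest tags and the lowest −log10 q (0.43, against 0.51 with E2). An intron region 3567 bp into the gene (chr1:62706612-62707031) was listed in vehicle libraries 1 and 3, E2 plus fulvestrant library 1 and fulvestrant library 1 at 3.36 to 3.73. It was listed in no library of E2 alone, but separate regions close on either side were. On one side, chr1:62706005-62706489 had 3.06 in E2 library 1 and 3.12 in vehicle library 3. On the other, chr1:62707447-62707851 had 3.67 in E2 library 2 and 3.31 in E2 plus fulvestrant library 2.

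The 4 regions listed by the same 5 libraries belong to a set seen across the genome. Of 8321 regions listed in exactly 5 libraries, 4628 (55.6%) were listed in number 1 of each treatment and vehicle 3, and the next most frequent set of 5 libraries accounted for 234. At the loci it was 4 of 5. The same libraries held 44 of the 60 member peaks with q of 0.05 or less (73.3%) and 73.8% of such peaks in the series. Among all member peaks, 142 of 297 (47.8%) were theirs, and 50.9% in the series.

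The other recurrent regions had lower or scattered signal. The region in most libraries, 7, was chr18:63195128-63195768 in a Piezo2 intron, and the 201 bp around its median summit were all masked as repeat. It was listed in vehicle libraries 1 and 2, E2 library 2, E2 plus fulvestrant library 2 and all 3 fulvestrant libraries at a fold enrichment of 2.92 to 3.23, never with q of 0.05 or less, and its summits spread over 497 bp. The other region in at least 6 libraries, chr18:63071428-63071993 in a Piezo2 intron 315467 bp into the gene, had no masked base in such a window. Its fold enrichment was 3.8 in vehicle library 2, 3.97 in vehicle library 3, 3.11 in E2 library 1, 2.37 in E2 plus fulvestrant library 1, 3.81 in fulvestrant library 2 and 3.31 in fulvestrant library 3. The Piezo2 promoter region chr18:63386508-63387301 had a GC content of 72.6% in the 201 bp around its median summit. It was listed in vehicle library 3 and library 1 of the other 3 treatments at 2.97, 3.11, 3.8 and 2.71.

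The Ncam1 repeat shown above belonged to chr9:49553687-49554543, where fold enrichment was 6.07 in vehicle library 2, 4.44 in E2 library 1, 3.24 in E2 library 2, 3.77 in E2 plus fulvestrant library 3 and 3.61 in fulvestrant library 1. It lies in an intron and also in the antisense gene Gm11149 (chr9:49518288-49572591). The remaining Ncam1 regions were each listed in 4 libraries. One, chr9:49534132-49534669, was an intron region at 2.66 to 4.09 from vehicle libraries 1 and 2, E2 library 1 and E2 plus fulvestrant library 2. The other, chr9:49820339-49820860, stood at −21739 bp from the start, with 4.45 in vehicle library 2, 4.67 in E2 library 2, 3.16 in fulvestrant library 1 and 3.43 in fulvestrant library 2. Of the 201 bp around its median summit 69.7% were masked. The Nrp2 intron sequence above came from chr1:62777324-62777877, 74252 bp into the gene, with 3.85 in vehicle library 1, 5.75 in vehicle library 3, 3.51 in fulvestrant library 1 and 3.3 in fulvestrant library 2, and none from either group given E2. Libraries 2 and 3 of both groups given E2 listed promoter peaks at only 17.3% to 25.5% of protein-coding genes. The share of all regions with this pattern is not given, and whether it goes with treatment was not tested.

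**Figure D3:**
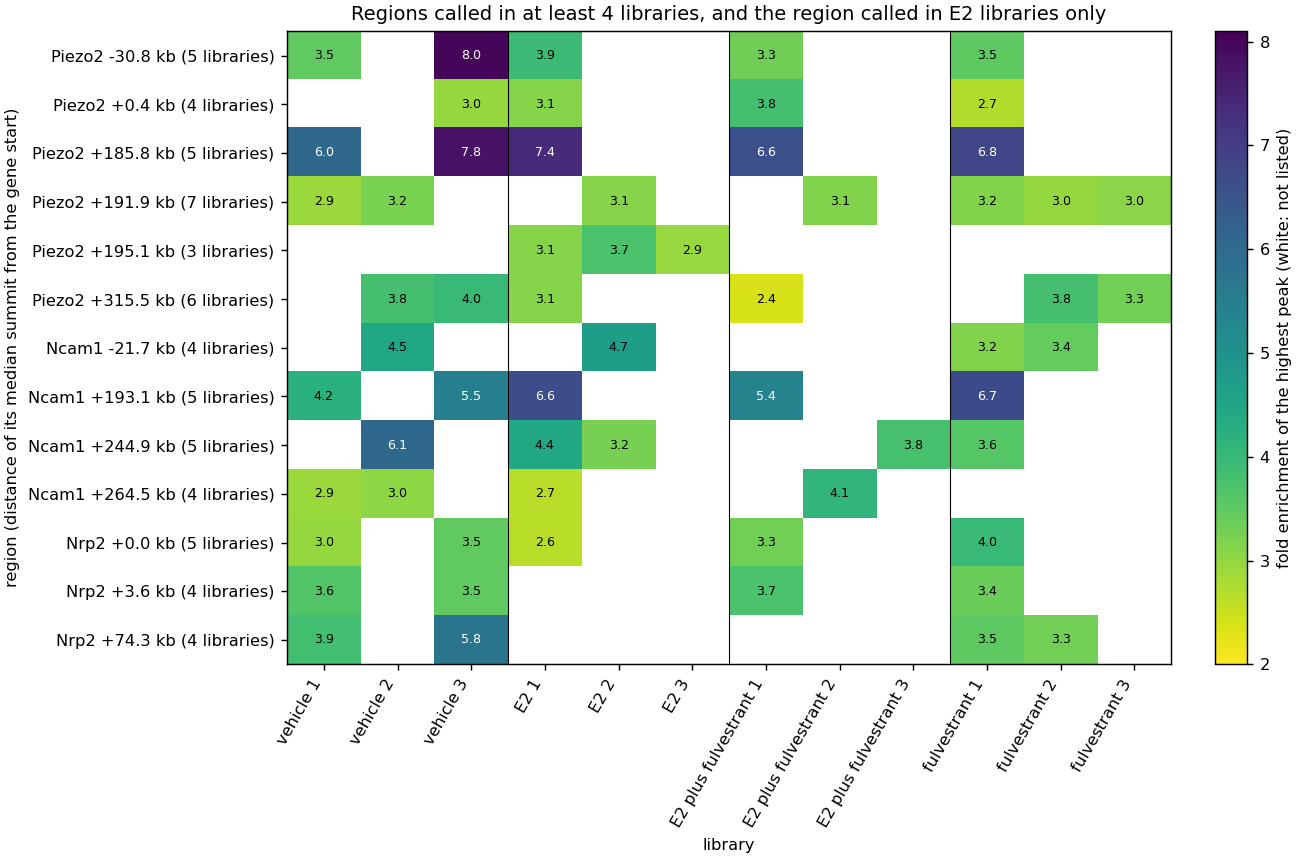
Fold enrichment in each library at the 12 regions listed in at least 4 libraries and at the region listed in E2 libraries only. Rows are regions by distance from the gene start, columns are libraries by treatment, and white means not listed. The 4 regions that share 5 libraries fill the columns of vehicle 1, vehicle 3, E2 1, E2 plus fulvestrant 1 and fulvestrant 1, and the Piezo2 row of the E2-only region is filled in the 3 E2 columns alone.

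A single region was listed in all 3 E2 libraries and in none of the other 9, the Piezo2 intron region chr18:63191985-63192411, 195070 bp into the gene. Its fold enrichment was 3.11, 3.73 and 2.94 in E2 libraries 1, 2 and 3, from pileups of 6, 7 and 5 tags where the smallest listed pileup of these libraries was 4. No value had q of 0.05 or less (−log10 q of 0.857, 0.857 and 0.107). Of the 201 bp around the region's median summit, 64.7% were masked as repeat. In the series 50 regions (0.0115%) had this pattern, and 312 (0.0717%) were listed in every E2 library and in no library of E2 plus fulvestrant, against 95 (0.0218%) in the reverse. At the 3 loci the counts were 1 and 0. Since 3 to 5 tags were needed for listing, absence from a list does not show closed chromatin. In all 6 libraries of the E2 and E2 plus fulvestrant groups, 0.25% of the regions of the series and 0 at the loci were listed.

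The number of peaks at a locus did not differ between E2 and E2 plus fulvestrant beyond the spread between libraries. Whether E2 opens chromatin at these genes when its receptor is free, compared with blocked, was the question of this comparison. At Piezo2, the E2 libraries 1, 2 and 3 had 14, 7 and 3 peaks (8 ± 5.57, SD, n = 3) and the E2 plus fulvestrant libraries had 14, 7 and 6 (9 ± 4.36). The difference was −1 (exact two-sided permutation p = 1), and within numbers 1, 2 and 3 it was 0, 0 and −3. At Ncam1 the numbers were 12, 8 and 6 (8.67 ± 3.06) with E2 and 10, 5 and 5 (6.67 ± 2.89) with fulvestrant added. The difference was 2 (exact two-sided permutation p = 0.5), and E2 was higher in 3 of 3 numbers, by 2, 3 and 1. At Nrp2 the numbers were 7, 3 and 4 (4.67 ± 2.08) and 4, 4 and 6 (4.67 ± 1.15), a difference of 0 (exact two-sided permutation p = 1). Here number 1 differed by 3 and numbers 2 and 3 together by −1.5 on average.

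The groups overlapped at all 3 loci, so 0 of 3 members were among the loci with non-overlapping groups, which were 362 of 21630 higher with E2 (1.67%) and 97 lower (0.448%). With 3 libraries against 3 the smallest possible p is 0.1, and adjusted over 21630 loci with a peak each p was 1. Scaled to 10000 peaks of each list, Piezo2 had 1.78, 1.44 and 0.946 peaks with E2 and 2.3, 1.93 and 1.79 with fulvestrant added. These groups did not overlap, with E2 lower by this measure (difference −0.618, exact two-sided permutation p = 0.1, the smallest possible, adjusted p = 1). Of all loci 5.25% were lower with E2 without overlap on this scale, and 3.32% were higher. The nearest values of the groups were 1.78 and 1.79, and the number of peaks itself overlapped.

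Against vehicle, E2 had a lower mean number of peaks at each locus, and 1 vehicle library set much of the gap at Piezo2 and Ncam1. Vehicle libraries 1, 2 and 3 had 8, 35 and 6 peaks at Piezo2 (16.3 ± 16.2), 10, 17 and 8 at Ncam1 (11.7 ± 4.73) and 6, 14 and 11 at Nrp2 (10.3 ± 4.04). The differences of E2 from vehicle were −8.33, −3 and −5.67, with exact two-sided permutation p of 0.6, 0.6 and 0.2, beside a median of −1 over all loci. Without vehicle library 2, which had the longest list of the series, the differences were 1, −0.333 and −3.83. Number 1 libraries differed by 6, 2 and 1, with E2 higher at all 3 loci, and numbers 2 and 3 together by −15.5, −5.5 and −9. Again 0 of 3 loci had groups that did not overlap, beside 0.171% of loci higher with E2 and 3.25% lower (2.52% and 4.88% per 10000 peaks, where the 3 loci also overlapped). Per 10000 peaks the mean at Ncam1 was higher with E2 (1.69) than with vehicle (1.54). It was lower with E2 at Piezo2 (1.39 against 1.85) and at Nrp2 (0.922 against 1.51).

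Fulvestrant alone gave 12, 8 and 7 peaks at Piezo2 (9 ± 2.65), 12, 6 and 2 at Ncam1 (6.67 ± 5.03) and 8, 2 and 0 at Nrp2 (3.33 ± 4.16). At Ncam1 and Nrp2 these ranges covered those of E2 and of E2 plus fulvestrant. The 0 at Nrp2 in fulvestrant library 3 came from a list of 30062 peaks.

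**Figure D4:**
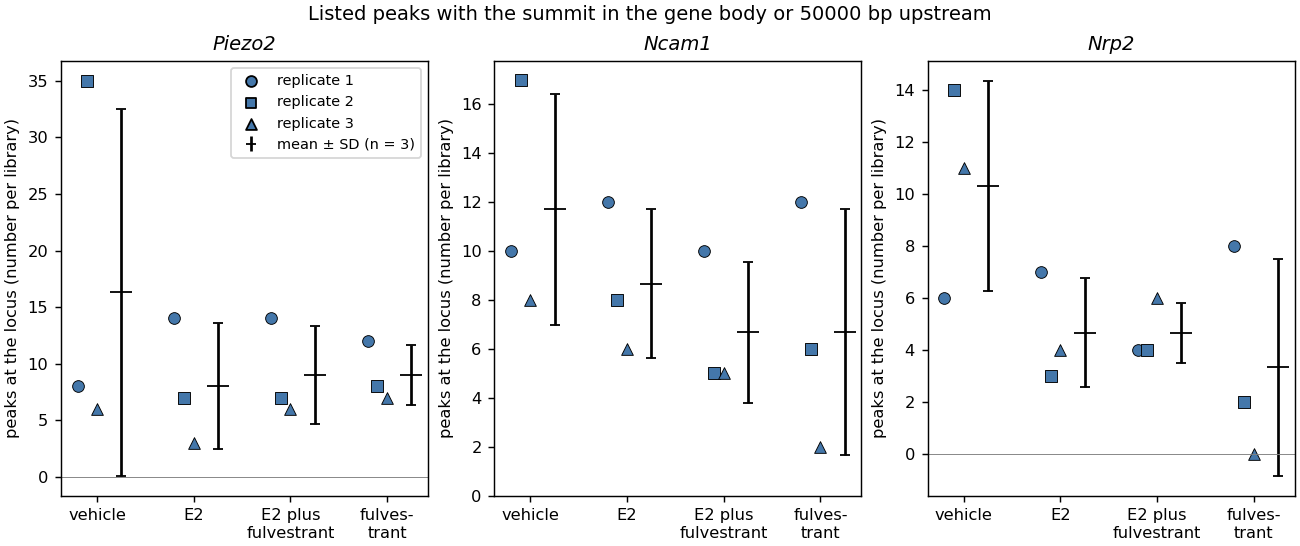
Peaks per library at each locus by treatment. Points are libraries with the replicate number as shape, the cross bars show the mean and SD of 3 libraries, and each panel has its own axis of peak number. The treatments overlap at all 3 loci, and vehicle library 2 has the most peaks in each panel, 35, 17 and 14.

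No complete estrogen response element was found in the regions of the 3 loci. The element was searched as GGTCA, any 3 bases and TGACC, on either strand and no more than 100 bp from the median summit. It occurred in 0 of 200 windows and in 0.0262% of 434675 windows of the series. Its half-site GGTCA, which is also part of the complete element, occurred in 72 of 200 (36%) beside 32.8%, but in 1 of the 12 regions in at least 4 libraries, beside 26.1% of such regions. AP-1 (TGANTCA) occurred in 12 of 200 (6%) beside 6.22%, and TEAD (GGAATG) in 26 (13%) beside 11.3%. None of the 4 printed sequences held any of these motifs. A match is a description of letters and not a bound site. Repeats covered at least 50% of the window bases in 3 of the 12 regions (25%), beside 28.5% of all regions in at least 4 libraries.

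Genes for partners of the 3 proteins, their relatives and proteins of similar function gave a background for their promoter calls. Of 16 genes in a list around mechanosensitive channels, 11 (68.8%) had a promoter peak in at least 6 libraries, beside 45.2% of all genes. Piezo1, the other channel of the PIEZO family, was listed in 11 libraries, Tmem63b and Pkd1 in 9 each and Tmem63a in 8. Of 15 genes for NCAM partners and relatives, 4 (26.7%) reached 6 libraries. They were the adhesion gene Nfasc and the FGF receptor gene Fgfr1 with 10 each, and the kinase genes Fyn and Ptk2 with 8 each. Of 18 semaphorin, VEGF, plexin and receptor genes around the neuropilins, 9 (50%) did, led by Plxna1 in 10, the semaphorin gene Sema3f in 9, Plxnd1 in 8 and Nrp1, the other neuropilin, in 7. Peak numbers at the locus were higher in every E2 than in every E2 plus fulvestrant library for 0 of 16, 1 of 15 (Gdnf, a growth factor that binds NCAM1 with its co-receptor) and 1 of 18 (the semaphorin gene Sema3e), beside 1.67% of all loci, and lower for 0 in each list, beside 0.448%. Gdnf and Sema3e are named after their values were seen. Gdnf had 6, 4 and 3 peaks with E2 and 2, 2 and 2 with fulvestrant added. It had 4, 7 and 3 with vehicle and 6, 2 and 3 with fulvestrant alone, and both of these groups overlapped that of E2. Calls in these lists also varied among libraries of a treatment: fulvestrant libraries 1, 2 and 3 listed promoters of 16, 2 and 5 of the 18 neuropilin genes, and E2 libraries listed 15, 6 and 4.

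The loci whose peaks per 10000 listed peaks followed the members most closely over the 12 libraries were taken among loci with a mean of at least 3 peaks. For Piezo2 they were Golga7b, Nme7 and Snap91, with Pearson r of 0.857, 0.823 and 0.816. For Ncam1 they were Slc25a54, Ywhag and Irs1, with r of 0.91, 0.908 and 0.895. For Nrp2 they were Homer3, 4930590J08Rik and Ajap1, with r of 0.915, 0.89 and 0.889. All values of a library share its depth and list length, the genes were the extremes of 7867 or 7868, and the r values are descriptions.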

How the data were processed

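ATAC-seq peak lists of 12 libraries, 1 list each with no pooling, were used. The study's methods say that the authors trimmed reads with Trimmomatic 0.39, aligned them to mm10 with Bowtie2, removed duplicates with Picard 2.21.4 and called peaks with MACS2. The deposited lists hold a score (10 times the −log10 p, truncated), a fold enrichment ratio, −log10 p-values and q-values, and a summit per peak. The lowest deposited −log10 p was 2.01, the mark of a cutoff of 0.01, so weak peaks are listed. Depth is not in the lists. Whole tag pileups were solved from fold enrichment and p within 0.002 on the −log10 scale, for 100% of the 297 member peaks.

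Genes and start sites came from GENCODE M21 on GRCm38, the sequence of mm10. Overlapping or touching peaks were merged into regions. Promoter peaks had a summit within 3000 bp of a start site. Groups were compared on peak numbers with two-sided exact permutation tests (Python 3.11.15, numpy 2.4.6, scipy 1.17.1) run on all loci and adjusted by Benjamini-Hochberg, checked on simulated data. The model for reads in consensus peaks that the study fitted needs read counts and was not run. Genes named beside the members were, for each list, the 4 with promoter peaks in the most libraries (ties in list order) and, for each member, the 3 with the most similar peaks per 10000. All regions in at least 6 libraries were to be named, and those in 4 or 5 were added. The members and gene lists were chosen with earlier results of these data known. Alternatives were a q of 0.05, a fold enrichment of 5, windows without or with 10000 bp upstream, scaling to 10000 peaks, other recurrence limits, summit groups, leaving out libraries and a replicate block. A Schwann cell marker list is not reported here.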

Additional observations from a re-analysis of the deposited data

How the results depend on the processing

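The peak numbers at the loci could not pass 0.05 under any setting, so these alternatives bear on direction and size only. With 1 library left out in turn, E2 minus E2 plus fulvestrant ranged from −4 (without E2 replicate 1) to 1.5 (without E2 replicate 3, and without E2 plus fulvestrant replicate 1) at Piezo2, where leaving out either of the last 2 turned the direction. With the same libraries left out it ranged from 0.333 to 3.67 at Ncam1 and from −1.17 to 0.833 at Nrp2, whose difference of 0 has no direction to keep. Likewise with 1 library left out, E2 minus vehicle ranged from −13.5 to 1 at Piezo2, the 1 being without vehicle replicate 2, from −4.83 to −0.333 at Ncam1 and from −7.83 to −3.83 at Nrp2. In number 1 libraries alone it reversed at all 3 loci, to 6, 2 and 1, and per 10000 peaks it reversed at Ncam1, to 0.142. For each reversal the cause was not tested. The replicate numbers were not shown to pair the libraries, since the deviations of same-numbered libraries correlated at 0.278, 0.0756 and 0.0784 for E2 and E2 plus fulvestrant over 7869 loci. With a replicate block, sign-flip p was 1, 0.25 and 1 at Piezo2, Ncam1 and Nrp2, and against vehicle 0.75, 0.75 and 0.5, where 0.25 is the smallest possible, with differences of −1, 2, 0, −8.33, −3 and −5.67. With q of 0.05 or less, promoter peaks were left in 2 libraries for Piezo2 and 3 for Ncam1, 0 Piezo2 regions recurred in 6 libraries, and the Piezo2 region of E2 libraries was lost (0). Recurrent regions, 2, 0 and 0 in at least 6 libraries, were 5, 4 and 3 in at least 4, and 0 at Piezo2 in at least 9. They were 8, 8 and 3 in at least 2 of the 4 number 1 libraries, and at Piezo2 1 with summits grouped within 150 bp and 1 without vehicle replicate 2, a setting added after seeing the data. With 1 library left out, regions in all E2 and none of the E2 plus fulvestrant libraries were 0 to 1 at Ncam1 (1 without E2 replicate 2), 0 to 1 at Nrp2 (1 without E2 replicate 1) and 1 in each case at Piezo2. No region of the 3 loci was listed in all 6 libraries of these groups, so the planned comparison of fold enrichment gave no value. No direction turned in the other 113 alternatives, but some of them could not turn. They include counts, differences of 0 and replicate blocks, whose difference equals the main one. Among these the Nrp2 promoter kept 3 of 5 libraries with q of 0.05 or less, and the Nrp2 difference of 0 became 3 in number 1 libraries and −1.5 in the others. With 3 to 5 tags needed for listing, weak sites can be missed. The part of depth in this was not tested.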
